A study of Mus musculus with 14 samples.

Results

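Control effector regulatory T cells (eTregs) were compared with control central regulatory T cells (cTregs) on the 8 control arrays of a series of 14, taken by their labels as 4 arrays of each subset. Regulatory T cells (Tregs) are CD4 T cells that restrain immune responses under the control of the transcription factor Foxp3. Central Tregs resemble naive T cells: they carry the lymph node homing receptor CD62L and circulate through lymphoid organs. Effector Tregs have met antigen, carry the adhesion receptor CD44, and are known for migration into tissues and for making suppressive and tissue repair factors.

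The cells of both groups came from mixed bone marrow chimeras. Marrow of CD45.2+ control donors, which carried a Cre recombinase driven by Foxp3 and 1 loxP-flanked Atg14 allele (Foxp3Cre Atg14+/fl), was mixed 1:1 with CD45.1+ wild-type marrow and given to sublethally irradiated Rag1-/- hosts, which lack their own mature T and B cells. The marrow had 6 to 8 weeks to reconstitute, and the mice were on the C57BL/6 background. Both control groups thus carried the Cre and were heterozygous for the Atg14 deletion in Tregs, and neither was unmanipulated wild type. The subsets were separated by the surface proteins used as gates, CD44low CD62Lhigh for cTregs and CD44high CD62Llow for eTregs, after gating on CD4 and Foxp3-YFP. The study's methods name the spleen as the source, and the series description names spleen with peripheral lymph nodes. The other 6 arrays, labelled KO, came from Foxp3Cre Atg14 fl/fl donors and were used here to estimate the spread and for values set beside the control values. The methods give an age of 6 to 20 weeks for mice of the Atg14 fl/fl genotype and for their controls, but none for the donors or hosts of these chimeras. Each subset was sorted from 4 control chimeras, and the labels do not say which cTreg and eTreg arrays came from 1 mouse.

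All values are log2 signals of transcript clusters, the groups of probes that read 1 gene, and a difference of 1 is a doubling. A cluster was called when its control eTreg minus control cTreg difference was at least 0.5 on the log2 scale with a Benjamini-Hochberg adjusted P below 0.05 in a limma fit of all 14 arrays. Of 22203 clusters, 680 were called (3.06%), with 476 higher in eTregs (2.14%) and 204 lower (0.919%). The median difference over all clusters was 0.0026. Rises were larger than falls: 206 of the 476 rises and 36 of the 204 falls reached a log2 difference of 1, and 34 rises and 2 falls reached 2. The arrays of the subsets did not overlap for 2473 clusters (11.1%), which included 467 of the called rises and 201 of the called falls. Along the first principal component of the control arrays, which held 40.25% of their variance, cTregs lay between -22.59 and -18.45 and eTregs between 19.20 and 22.11. The second component held 20.33% and set eTreg 1 (31.37) apart from the other control arrays, which ran from -18.54 to 14.13. In a bulk sample, a change in the share of cells that use a gene and a change in RNA per cell cannot be told apart.

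**Figure D1:**
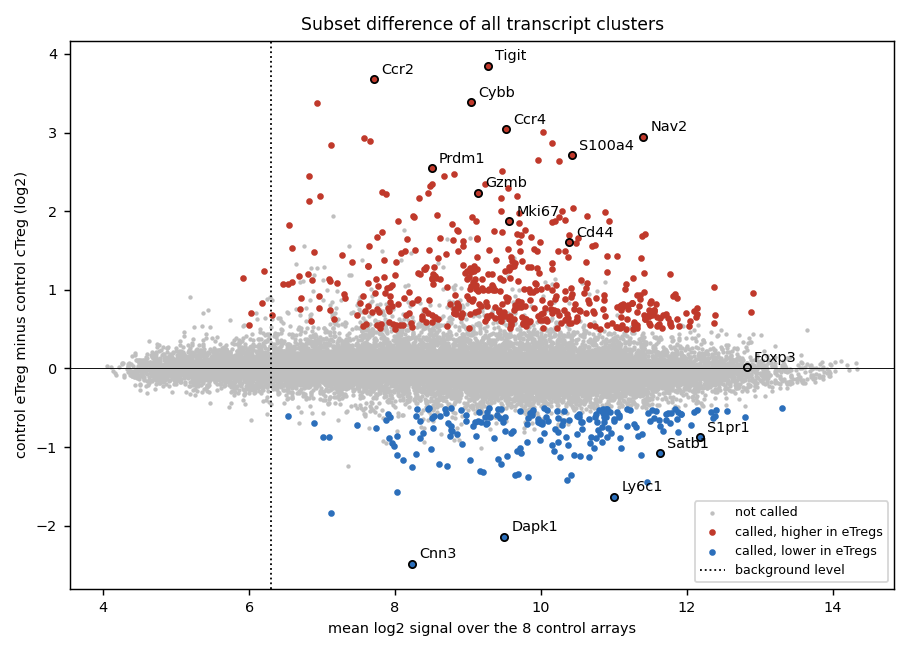
Each point is 1 of 22203 transcript clusters, with its mean log2 signal over the 8 control arrays on the x axis and its control eTreg minus control cTreg log2 difference on the y axis. The 476 called rises (red) reach 3.85 at Tigit, and the 204 called falls (blue) reach -2.48 at Cnn3, while Foxp3 lies near 0. The dotted line is the background level of 6.30.

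The arrays carried the CD44 mark of the sort. Cd44 read 9.57, 9.46, 9.62 and 9.66 in cTregs 1 to 4 and 10.95, 11.35, 11.29 and 11.16 in eTregs 1 to 4. Every eTreg array was above every cTreg array, and the difference was 1.61 (SE 0.19, adjusted P = 0.00012). Cd44 encodes a gated protein, so its difference is no independent finding. Foxp3 read 12.76 to 12.87 in cTregs and 12.76 to 12.92 in eTregs, with a difference of 0.02 (SE 0.10), or -0.03 with the array medians subtracted. Cd3e and Cd3d encode chains of the T cell receptor complex, Cd4 a co-receptor and Lck the first kinase of the receptor. These genes had group means of 12.45 to 13.22 and differences of -0.05 to 0.08, and none of the 4 was called. Il2ra, which encodes the IL-2 receptor chain CD25 used to mark Tregs, read 7.47 to 8.44 in cTregs and 6.94 to 8.05 in eTregs and was not called (-0.50, adjusted P = 0.40). Its cTreg mean of 7.92 lay below the median cTreg mean of all clusters, 8.8. Atg14 read 8.64 to 9.26 in cTregs and 8.64 to 9.01 in eTregs.

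The largest rise was that of Tigit, a co-inhibitory receptor of T and NK cells. It read 6.79, 7.40, 7.35 and 7.83 in cTregs 1 to 4 and 11.03, 11.26, 11.25 and 11.26 in eTregs 1 to 4, a difference of 3.85 (SE 0.27, adjusted P = 1.5e-06), or 14.4-fold. The groups were separated by more than 3 log2 units at their closest arrays. Cybb, the catalytic subunit of the phagocyte NADPH oxidase, rose by 3.39 (SE 0.34, adjusted P = 2.2e-05), from 6.91 to 7.81 to 10.63 to 10.90. Cybb is also a member of the monocyte and macrophage list described below. Further large rises without overlap were those of Nav2 (2.95), a cytoskeletal regulator known from neurons, Gpm6b (3.00), a membrane proteolipid known from neurons and glia, Axl (2.87), a receptor kinase that binds Gas6, and Sccpdh and Igsf9b. Sccpdh and Igsf9b had cTreg means at the background level, so their rises are at least 4.96-fold and at least 6.78-fold. Sccpdh read 5.05 to 5.34 in cTregs and 7.62 to 9.09 in eTregs.

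The largest fall was that of Cnn3, calponin 3, an actin-binding protein. It read 9.42, 9.72, 9.31 and 9.46 in cTregs 1 to 4 and 6.67, 7.18, 6.30 and 7.83 in eTregs 1 to 4, a difference of -2.48 (SE 0.26, adjusted P = 3.0e-05). All eTreg arrays were lower than all cTreg arrays, and they spread more widely (SD 0.66 against 0.17). Dapk1, a death-associated protein kinase, fell by 2.14 (SE 0.28, adjusted P = 0.00026), from 10.06 to 10.93 to 7.78 to 9.03. Other falls without overlap were those of Aqp11 (at least 2.94-fold lower, with the eTreg mean at the background level), an aquaporin, Atp1b1 (-1.42), a subunit of the sodium-potassium pump, Sulf2 (-1.36), a sulfatase that edits heparan sulfate, Ms4a4c (-1.35), Dapl1 (-1.35), the ion channel gene Cnga1 (-1.32), the phosphatase gene Ppm1l (-1.25) and the adenylyl cyclase gene Adcy6 (-1.24).

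The promoters of the 2 largest rises and the 2 largest falls with both groups above background are shown so that the values can be read beside the sequence. They are RefSeq windows of the mouse assembly GRCm38.p6, from 250 bases before to 50 after the listed start, written 5′ to 3′ on the strand of the gene. Capitals mark any match, on either strand, to TGANTCA (AP-1), GGAAA (the core bound by NFAT and Ets factors), TTCNNNGAA (STAT), GATAA, which GATA factors bind, CACCC, which Klf factors bind, or GGANTTNCC (NF-kB).
Tigit, chr16:43664135-43664434, minus strand: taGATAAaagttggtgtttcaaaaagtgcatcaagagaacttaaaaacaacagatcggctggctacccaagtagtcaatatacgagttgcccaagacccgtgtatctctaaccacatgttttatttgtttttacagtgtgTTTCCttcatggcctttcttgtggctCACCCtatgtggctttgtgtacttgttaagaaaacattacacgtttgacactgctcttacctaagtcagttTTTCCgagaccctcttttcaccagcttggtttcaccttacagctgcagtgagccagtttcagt
Cybb, chrX:9469275-9469574, minus strand: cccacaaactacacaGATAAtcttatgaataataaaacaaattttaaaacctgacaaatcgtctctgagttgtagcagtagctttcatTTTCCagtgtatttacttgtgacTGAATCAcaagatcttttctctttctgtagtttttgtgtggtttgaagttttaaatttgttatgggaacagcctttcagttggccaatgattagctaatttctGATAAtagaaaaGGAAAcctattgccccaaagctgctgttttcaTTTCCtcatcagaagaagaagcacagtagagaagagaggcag
Cnn3, chr3:121426291-121426590, plus strand: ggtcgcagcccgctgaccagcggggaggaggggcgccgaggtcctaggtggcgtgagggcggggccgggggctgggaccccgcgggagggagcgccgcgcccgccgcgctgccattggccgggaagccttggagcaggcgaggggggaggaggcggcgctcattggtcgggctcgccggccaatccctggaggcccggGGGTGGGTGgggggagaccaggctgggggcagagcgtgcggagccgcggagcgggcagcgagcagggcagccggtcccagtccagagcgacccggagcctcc
Dapk1, chr13:60601961-60602260, plus strand: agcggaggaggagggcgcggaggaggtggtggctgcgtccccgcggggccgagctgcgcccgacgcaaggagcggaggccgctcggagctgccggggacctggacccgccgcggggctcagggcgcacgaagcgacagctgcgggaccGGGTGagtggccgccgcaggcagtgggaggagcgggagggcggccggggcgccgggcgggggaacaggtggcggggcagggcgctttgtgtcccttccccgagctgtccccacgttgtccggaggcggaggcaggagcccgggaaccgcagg
The windows of Tigit and Cybb were 41.3% and 35.3% G or C, and those of Cnn3 and Dapk1 78.3% and 77.7%. The Cybb window held 1 AP-1 match, 3 GGAAA matches and 2 GATA matches, and the Cnn3 and Dapk1 windows held Klf matches alone (2 and 1). This contrast of the 4 windows was not a property of the called genes at large: the median G or C content was 57.0% over all 19559 windows of measured genes, 58.0% over the 461 windows of genes called higher and 60.3% over the 207 of genes called lower.

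TGANTCA was present in 7.04% of all those windows, 8.24% of those of genes called higher and 6.76% of those of genes called lower. GGAAA was present in 60.1%, 60.3% and 55.1%, TTCNNNGAA in 7.79%, 8.03% and 4.83%, and GATAA in 22.1%, 20.0% and 19.8%. CACCC was present in 60.1%, 65.9% and 63.3%, and GGANTTNCC in 4.04%, 6.51% and 4.35%. Some genes have several windows, and a match of these letters is a description, with no test.

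Receptors that guide migration were among the genes that separated the subsets most. Of 23 chemokine receptor genes measured, 7 were called higher and 0 lower, against 2.14% and 0.919% of all clusters, and the list median was 0.29. Ccr2, a receptor for inflammatory monocyte chemoattractants, read 5.26, 6.43, 6.17 and 5.63 in cTregs 1 to 4 and 9.33, 10.18, 9.40 and 9.29 in eTregs 1 to 4. Its cTreg mean lay at the background level, so the rise is at least 9.28-fold (adjusted P = 4.0e-06). Ccr4, a receptor linked to skin homing, rose by 3.04 (SE 0.22, adjusted P = 1.5e-06), from 7.35 to 8.53 to 10.80 to 11.32. Ccr6, the receptor for CCL20, rose by 2.64, Ccr8, a receptor found on tissue Tregs, by 1.98 and Cxcr5, the receptor that leads T cells to B cell follicles, by 1.50. For each of these 5 receptors the arrays of the subsets did not overlap. Ccr7, the lymph node homing chemokine receptor, differed by -0.24 (adjusted P = 0.30), and Cxcr4 by 0.29 (adjusted P = 0.51).

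Of 22 receptors for lipids and other migratory cues, 4 were called higher and 1 lower, with a median of 0.03. S1pr1, the sphingosine-1-phosphate receptor by which T cells leave lymphoid organs, read 12.55 to 12.70 in cTregs and 11.60 to 11.89 in eTregs and fell by 0.87 (SE 0.13, adjusted P = 0.00059). Gpr15, a receptor linked to colon homing, rose by 1.23, and Ptger2, a prostaglandin E2 receptor, rose by 1.21. Without cTreg 1, cTreg 3, eTreg 2, eTreg 3 or eTreg 4, 3 members in place of 5 were called.

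Adhesion genes moved both ways: of 43 measured, 9 were called higher and 7 lower. The rises included Itgb1, the integrin beta 1 chain (1.71), Itgae, the CD103 chain that binds E-cadherin (1.61), Itgb8, part of an integrin that activates TGF-beta (1.42), Itga2, the collagen-binding alpha 2 chain (1.22), and Alcam (1.57). Itgb1 read 10.38 to 10.69 in cTregs and 12.21 to 12.36 in eTregs. The falls included Ly6c1 (-1.63) and Ly6c2 (-0.77), neighbouring Ly6C genes with near-identical sequence, Selp, which encodes P-selectin (-1.39), and Pecam1 (-0.64), an adhesion molecule of naive T cells and endothelium. Ly6c1 read 11.52, 11.78, 11.92 and 12.07 in cTregs 1 to 4 and 10.52, 9.99, 10.39 and 9.87 in eTregs 1 to 4. The subsets did not overlap for Ly6c1.

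**Figure D2:**
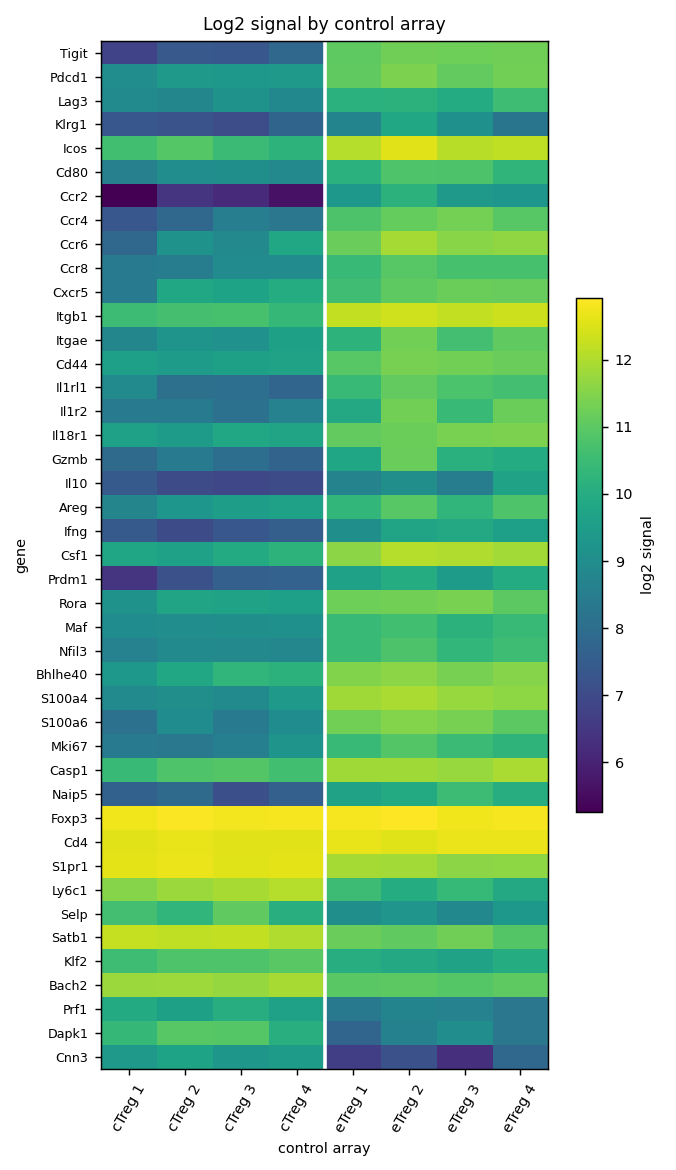
Log2 signal (colour) of 43 genes in each control array, with cTregs 1 to 4 left and eTregs 1 to 4 right of the white line. The rows from Tigit to Naip5 are brighter in every eTreg array, Foxp3 and Cd4 are level, and the rows from S1pr1 to Cnn3 are darker in every eTreg array.

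Of 18 co-inhibitory receptor genes, 6 were called higher and 0 lower, with a median of 0.47. Besides Tigit these included Pdcd1, which encodes PD-1, Klrg1, a receptor of terminally differentiated lymphocytes, and Lag3, which binds MHC class II. Pdcd1 read 9.03 to 9.41 in cTregs and 11.06 to 11.41 in eTregs and rose by 1.93 (SE 0.16, adjusted P = 4.0e-06). Klrg1 rose by 1.65 and Lag3 by 1.29. Ctla4 rose by 0.58 (adjusted P = 0.017), and its adjusted P was 0.0618 without cTreg 2, 0.0514 without eTreg 2, 0.0576 without eTreg 3 and 0.0702 without eTreg 4. Cd96 and Vsir, which encodes the receptor VISTA, had differences of -0.05 and -0.08.

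Of 35 TNF receptor family and costimulatory genes, 8 were called higher and 0 lower. Icos, the inducible costimulator, rose by 1.69 (SE 0.20, adjusted P = 0.00013), from 10.20 to 10.90 in cTregs to 12.06 to 12.57 in eTregs. Cd80, a ligand of CD28 and CTLA-4 better known from antigen-presenting cells, rose by 1.61, Tnfrsf1b, the type 2 TNF receptor, by 0.96 and Tnfrsf9, which encodes 4-1BB, by 0.81. Tnfrsf18, which encodes GITR, differed by 0.14 (adjusted P = 0.72). Without cTreg 2, cTreg 3 or eTreg 2 the count of called members was 5. Among 17 genes of Treg identity, which overlap these lists, 5 were called higher and 0 lower, among them the ectoenzyme gene Nt5e (0.89), which encodes CD73, Ikzf2 (0.71), which encodes Helios, and Nrp1 (0.68), a semaphorin receptor.

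Of 43 cytokine receptor genes, 10 were called higher and 2 lower, and the 3 largest rises were those of IL-1 receptor family genes. Il1rl1, which encodes ST2, the receptor for IL-33, read 8.92, 8.10, 8.07 and 7.77 in cTregs 1 to 4 and 10.44, 11.08, 10.75 and 10.64 in eTregs 1 to 4, a rise of 2.51 (SE 0.27, adjusted P = 4.9e-05). Il1r2, a decoy receptor for IL-1, rose by 2.30, Il18r1 by 1.59 and Il18rap by 1.14, the last being the chains of the IL-18 receptor. Il1rl1, Il18r1 and Il18rap follow each other on chromosome 1, and at the same locus Il1r1 (0.53, adjusted P = 0.089) and Il1rl2 (-0.53, adjusted P = 0.41) were not called. Without eTreg 4, Il1r1 was called (0.74, adjusted P = 0.00117). Il23r rose by 1.51. Ifngr2, a chain of the interferon gamma receptor, fell by 0.62. The chains Il2rb, for IL-2 and IL-15, and Il6st, for the IL-6 family, differed by 0.18 and -0.12 and were not called.

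Of 31 suppressive and repair mediators, 11 were called higher and 1 lower, and 29 of the 31 differences were positive. Gzmb, the protease granzyme B, read 7.91, 8.46, 8.04 and 7.70 in cTregs 1 to 4 and 9.75, 11.19, 10.13 and 9.97 in eTregs 1 to 4, a rise of 2.24 (SE 0.35, adjusted P = 0.0011). Prf1, the pore-forming protein perforin that delivers granzymes, moved the other way: it fell by 1.30 (SE 0.19, adjusted P = 0.00068), from 9.62 to 10.05 in cTregs to 8.30 to 8.72 in eTregs. Neither gene showed an overlap of the subsets. Il10 rose by 1.87 (SE 0.30, adjusted P = 0.0015), from 6.90 to 7.42 to 8.50 to 9.67. Penk, which encodes proenkephalin, rose by 1.89, Fgl2, a secreted suppressive fibrinogen-like protein, by 1.49, and Areg, a growth factor of tissue repair, by 1.28. Tgfb1 differed by 0.06.

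Of 34 cytokine and chemokine genes, 7 were called higher and 0 lower. Ifng read 7.42, 7.03, 7.33 and 7.57 in cTregs 1 to 4 and 9.09, 9.74, 9.87 and 9.59 in eTregs 1 to 4, a rise of 2.24 (SE 0.25, adjusted P = 6.2e-05). Csf1, the macrophage growth factor, rose by 1.99, Il4 by 1.67, Il21 by 1.31 and Ccl5 by 0.68. Il18 rose by at least 4.73-fold from a cTreg mean at the background level. The subsets did not overlap for any of these 6 genes.

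Transcription factors gave the list with the highest share of calls. Its members were chosen for a link to effector Tregs and with earlier results of these data known, so its rank is no independent finding. Of 33 factors linked to effector Tregs, 16 were called higher and 0 lower, with a median of 0.51. Prdm1, which encodes Blimp-1, read 6.46, 7.17, 7.62 and 7.66 in cTregs 1 to 4 and 9.64, 9.99, 9.49 and 9.97 in eTregs 1 to 4, a rise of 2.55 (SE 0.36, adjusted P = 0.00047). Nfil3, a basic leucine zipper factor, rose by 1.70 and Bhlhe40, a helix-loop-helix factor, by 1.56. Rora, a nuclear receptor, rose by 1.69, and Maf, a driver of Il10 transcription, by 1.36. Rora has 3 clusters, with differences of 0.30 to 2.05, of which 2 were called. Irf4 and Batf, partners in T cell activation, rose by 0.86 and 0.64, and Gata3 differed by 0.30 (adjusted P = 0.13).

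Of 34 factors linked to central or quiescent T cells, 8 were called lower and 1 higher, and 27 of the 34 differences were negative (median -0.26). Satb1, a chromatin organiser, read 11.99 to 12.26 in cTregs and 10.88 to 11.26 in eTregs and fell by 1.08 (SE 0.13, adjusted P = 9.9e-05). Klf2, known to drive transcription of S1pr1, fell by 0.87 (SE 0.12, adjusted P = 0.00046), from 10.54 to 10.96 to 9.69 to 10.04. Bach2, a repressor of effector genes, fell by 0.83, Sox4 by 0.80, and Tsc22d3, a glucocorticoid-induced gene, by 0.79. Ikzf2 was the called rise of this list. Ikzf1, a lymphoid zinc finger factor, differed by -0.29 (adjusted P = 0.09).

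The T cell receptor pathway differed less. Of 62 measured members, 5 were called higher and 2 lower, with a median of 0.03, and without eTreg 2 the count of called members was 4. Ptprj, a receptor phosphatase, rose by 1.75, Nfatc1 by 0.84 and Sh2d1a, an adaptor of SLAM receptors, by 0.65, while the phosphatase gene Dusp10 fell by 0.62. Of 29 AP-1 and immediate early genes, 2 were called higher, Batf and Egr2, and the call of Egr2 held only without cTreg 4 among the 8 omissions of an array. The transcription factor genes Fosb and Junb and the phosphatase gene Dusp1, all induced within minutes of stimulation, differed by 0.15, 0.00 and 0.09. Among 35 Rgs, Gimap, Socs and Dusp genes, Rgs16, a regulator of G protein signalling, rose by 1.15, Dusp10 fell as above, and no other member was called. Shares called were 11.3% for T cell receptor, 6.9% for AP-1 and 5.71% for Rgs, Gimap, Socs and Dusp genes, against 3.06% of all clusters.

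Of 56 cell cycle and DNA replication genes, 5 were called higher and 0 lower (8.93%, against 3.06% of all clusters). The differences of 48 of the 56 were positive, with a median of 0.29, and 51 were not called. Mki67, which encodes the proliferation antigen Ki67, read 8.39, 8.34, 8.57 and 9.22 in cTregs 1 to 4 and 10.43, 10.86, 10.48 and 10.24 in eTregs 1 to 4, a rise of 1.87 (SE 0.25, adjusted P = 0.00028). The spindle gene Tpx2 rose by 0.56. The calls of Mki67 and Tpx2 were kept in each omission of 1 array, and the count for the list was 2 without cTreg 1 and 3 without cTreg 2, cTreg 3 or eTreg 2. Pcna and Mcm7, which act at the replication fork, were among the 8 members with a negative difference (-0.01 and -0.21). Of 21 cell cycle brakes and D cyclins, 1 was called higher and 1 lower, or 1 in all without cTreg 3, cTreg 4, eTreg 3 or eTreg 4.

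**Figure D3:**
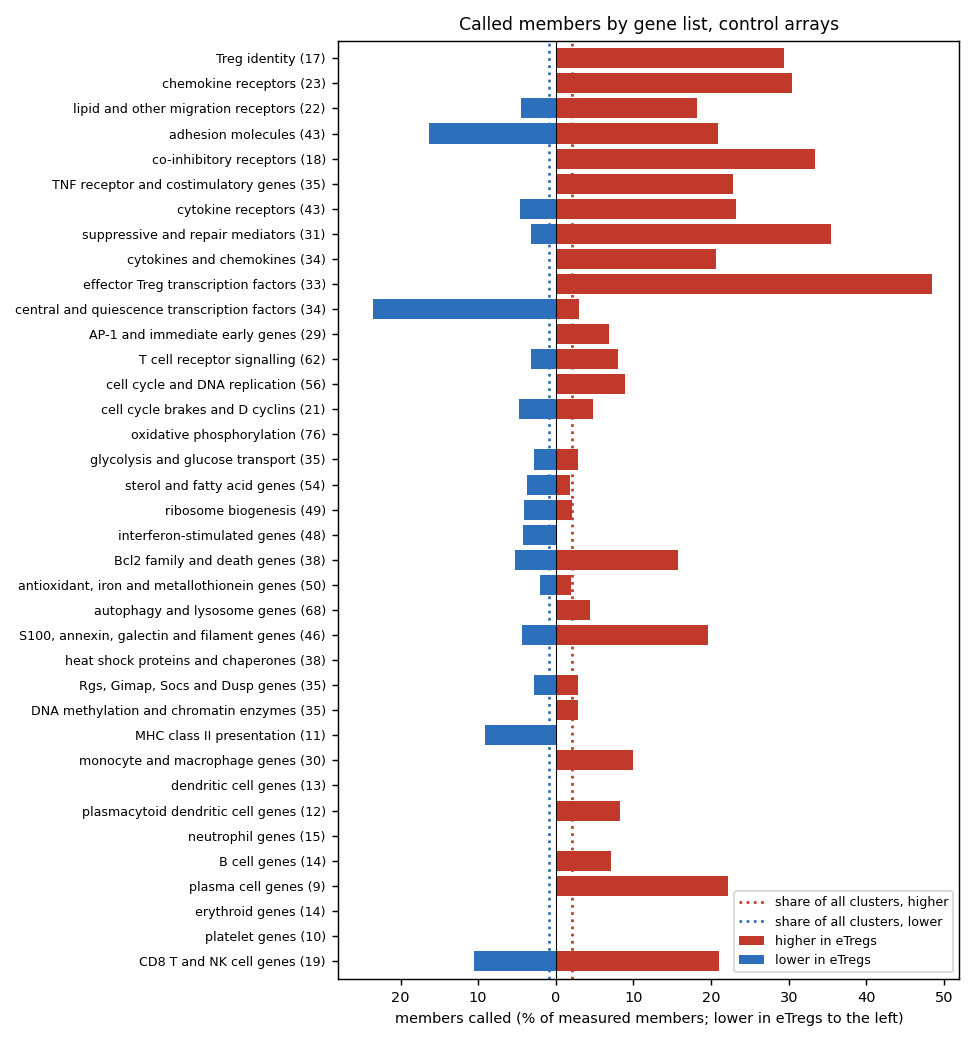
Share of the measured members of each gene list (number in parentheses) that were called higher in eTregs (red, right) or lower (blue, left), in percent, with dotted lines at the shares of all clusters (2.14% and 0.919%). Effector transcription factors reach furthest right with 16 of 33 called, and central and quiescence factors furthest left with 8 of 34. The lists were written with earlier results of these data known.

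Metabolic and ribosome lists had median differences of -0.21 to 0.0. The share of members called was 0.0% for oxidative phosphorylation and 5.71% for glycolysis. It was 5.56% for sterol and fatty acid genes and 6.12% for ribosome biogenesis, against 3.06% of all clusters. Of 76 oxidative phosphorylation genes, 0 were called by limma, 5 had an unadjusted P below 0.05 and 0 were called in a fit of the 8 control arrays alone, and 64 differences were negative with a median of -0.08. Of 35 glycolysis genes, Pdk1, a kinase that restrains pyruvate oxidation, fell by 0.81, and Tpi1 rose by 0.66 with an adjusted P of 0.0534 without cTreg 1 and 0.0529 without eTreg 2. Gapdh and Eno1 differed by 0.16 and -0.17. Of 54 sterol and fatty acid genes, 1 was called higher and 2 lower. Soat2, which esterifies cholesterol, rose by 0.96. Of 49 ribosome biogenesis genes, 47 differences were negative with a median of -0.21, but 2 were called lower and 1 higher. The call that held in each omission was the rise of Odc1 (0.75), the entry enzyme of polyamine synthesis. The count of called members was 1 without cTreg 2, cTreg 3, cTreg 4, eTreg 1, eTreg 3 or eTreg 4.

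Death and inflammasome genes changed in both directions. Of 38 Bcl2 family and death genes, 6 were called higher and 2 lower. The 2 falls were those of Bcl2l11 and Bcl2, and the call of Bcl2 (-0.54), the founding survival gene of the family, held only without eTreg 3 among the 8 omissions of 1 array. Casp1 and Casp4, neighbouring inflammatory caspase genes on chromosome 9, rose by 1.15 and 1.08. Bcl2a1a, Bcl2a1b and Bcl2a1d, near-identical copies of a survival gene that may share probes, rose by 0.95 to 1.03. Bcl2l11, which encodes the death-promoting protein Bim, fell by 0.86 (SE 0.13, adjusted P = 0.00067). On chromosome 13 the neighbouring Naip genes, cytosolic sensors of bacterial proteins that act through caspase 1, rose together: Naip5 by 2.47, Naip6 by 2.22 and Naip2 by 1.51, whereas Naip1 differed by 0.52 (adjusted P = 0.18 with 14 arrays). Naip1 was called in the fit of the 8 control arrays (adjusted P = 0.0247). Naip5 read 7.13 to 7.90 in cTregs and 9.66 to 10.50 in eTregs. The Naip genes were chosen after their values were seen, and their sequences are alike, so probes may be shared. Of 48 interferon-stimulated genes, 2 were called lower and 0 higher (4.17%, against 3.06% of all clusters). Usp18, which dampens interferon signalling, fell by 0.82, and the call of Oas2 (-1.02) was lost without cTreg 1 (adjusted P = 0.0534), cTreg 2 (adjusted P = 0.06) or eTreg 3 (adjusted P = 0.0568).

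Calcium-binding and membrane scaffold genes rose more often than they fell: of 46 S100, annexin, galectin and filament genes, 9 were called higher and 2 lower. S100a4 read 8.93, 9.05, 8.92 and 9.38 in cTregs 1 to 4 and 11.83, 11.94, 11.74 and 11.62 in eTregs 1 to 4, a rise of 2.71 (SE 0.19, adjusted P = 1.5e-06). S100a6 rose by 2.65, Anxa2, a partner of S100a10 at membranes, by 1.37, and Ahnak, a large scaffold protein, by 1.36. The falls were those of Cnn3 and of Actn1 (-0.87), an actin crosslinker. S100a10 itself rose by 0.73, and S100a9, a neutrophil gene of the same S100 cluster on chromosome 3, differed by -0.07 (adjusted P = 0.89).

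Of 68 autophagy and lysosome genes, 3 were called higher and 0 lower (4.41%, against 3.06% of all clusters). Lamp2, a lysosome membrane protein (0.59), kept its call in each omission of an array. The count of called members was 1 without cTreg 3, cTreg 4, eTreg 3 or eTreg 4. Sqstm1, an autophagy receptor, differed by -0.08. Of 38 chaperone genes 0 were called by limma, 4 had an unadjusted P below 0.05, 0 were called in the fit of the control arrays alone and 1 with the replicate block. Of 35 chromatin enzyme genes 1 was called (2.86%), Hmgn3 (0.82), with 2 called without eTreg 1. Of 50 antioxidant and iron genes, 1 was called higher and 1 lower (4.0%), and neither call was kept in each omission of 1 array. Both calls were kept in the other alternative fits. In the fit of the control arrays alone 3 were called higher and 1 lower. That of Slc40a1, the iron exporter ferroportin (1.67), was lost without each array other than eTreg 4 (adjusted P of 0.0651 to 0.0901). The fall of Mgst3, a microsomal glutathione transferase (-0.52), was under the limit of 0.5 without cTreg 2, cTreg 3, eTreg 2 or eTreg 3.

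Genes of other cell types moved with the subset. The 30 measured genes of monocytes and macrophages had a list mean of 7.79 to 8.00 in the control cTreg arrays and 8.67 to 9.03 in the control eTreg arrays, all 30 differences were positive, and the median was 0.66. None of the 30 was at the background level in both subsets. Of them 3 were called higher, Ccr2, Cybb and Mpeg1 (1.94). The KO eTreg arrays, which share the estimate of the spread, had list means of 8.40, 10.35 and 10.44. In a fit of the 8 control arrays alone 15 of the 30 were called, against 4.02% of all clusters, and with the replicate number as a replicate block in the fit of 14 arrays 5 were, C1qa among them (adjusted P = 0.04). The 15 called in the fit of the 8 control arrays included Csf1r (1.30, adjusted P = 0.00031) and C1qa (1.66, adjusted P = 9.8e-05). Mrc1 (1.56, adjusted P = 0.0013) and Lyz2 (1.07, adjusted P = 0.032) were also called in that fit. Csf1r, C1qa, Mrc1 and Lyz2 were not called in the main fit of 14 arrays. Cd14 (0.11), Cd68 (0.13) and Apoe (0.17) were called in neither fit. Of 11 MHC class II genes, 0 were called higher in the fit of 14 arrays and 7 in the fit of the control arrays, 8 had an unadjusted P below 0.05 with 14 arrays, and their list mean was 9.53 to 9.92 in cTregs and 10.32 to 10.60 in eTregs. H2-Ab1, a chain of the class II molecule, differed by 1.14 (adjusted P = 0.084 with 14 arrays and 0.00019 with 8), and H2-Ob, an inhibitor of peptide loading, was called lower (-0.53, adjusted P = 0.046). The call of H2-Ob was lost without each array other than cTreg 1 (adjusted P of 0.0688 to 0.156) and in the fit of the control arrays (adjusted P = 0.057). With the replicate block 4 class II genes were called, among them H2-Ab1 (adjusted P = 0.0163) but not H2-Ob (adjusted P = 0.0757). The part of these genes in the rises of Cybb, Ccr2, Mpeg1, Axl and Il18 was not tested.

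Other marker lists stood closer together. The list means of cTregs and eTregs were 8.35 to 8.47 and 8.55 to 8.62 for 13 dendritic cell genes, and 7.59 to 7.68 and 7.59 to 7.82 for 15 neutrophil genes. They were 8.05 to 8.37 and 8.37 to 8.45 for 14 B cell genes, of which Cd22 rose by 0.89 while Ms4a1 (0.18), which encodes CD20, was not called. Of 19 CD8 T and NK cell genes, 4 were called higher and 2 lower. The falls included Prf1 (-1.30), and each omission of 1 array left 5 called members in place of 6. Gzmb and Prf1 were also counted among the suppressive and repair mediators. Klrb1c, which encodes the NK1.1 receptor, rose by at least 3.38-fold from the background level, Nkg7, a granule protein gene, rose by 1.43, Cd8a differed by 0.09 and Ncr1 by -0.03. Of 12 plasmacytoid dendritic cell genes 1 was called, Runx2 (1.02), or 2 with the replicate block. Of 9 plasma cell genes 2 were called, Irf4 and Prdm1, which were also counted among the effector Treg factors. Erythroid and platelet lists had 0 members called by limma, 1 and 2 members with an unadjusted P below 0.05, and 0 called in the fit of the control arrays. In the dendritic and neutrophil lists 0 were called, 2 and 1 had an unadjusted P below 0.05, and 1 and 0 were called in the fit of the control arrays.

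**Figure D4:**
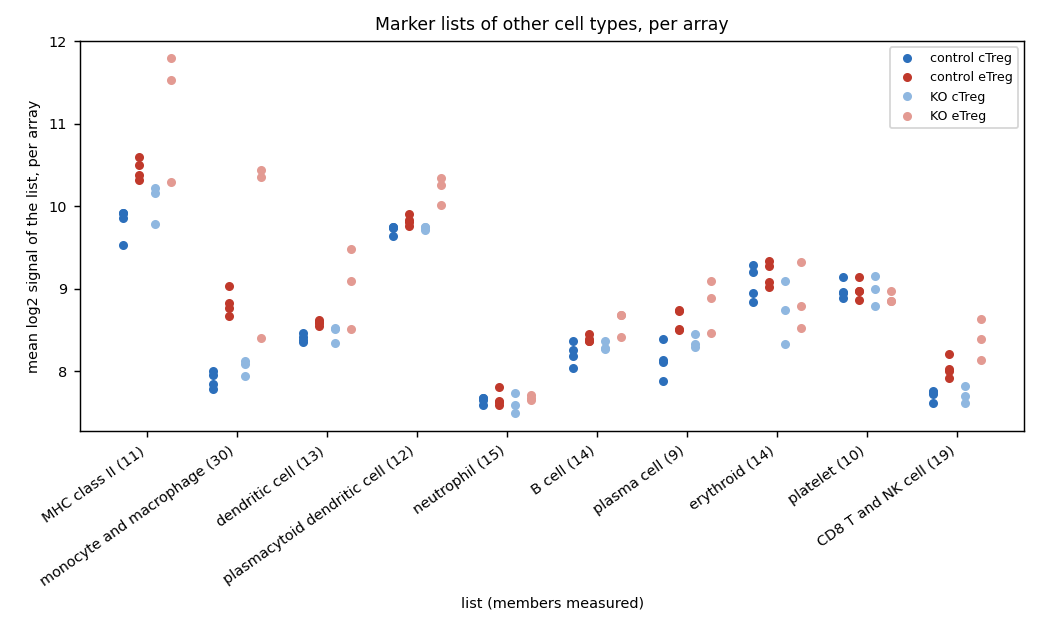
Mean log2 signal of the measured members of each marker list (number in parentheses), with 1 point per array. For monocyte and macrophage genes the control eTregs lie at 8.67 to 9.03, above the control cTregs at 7.79 to 8.00, and 2 KO eTreg arrays lie above 10.3.

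Grouped by the letters at the start of the gene symbol, 153 families had at least 15 clusters, and 73 of them had no call in either direction. The interleukin and interleukin receptor symbols (Il) had 13 of 82 clusters called higher (15.9%) and 0 lower, and Tnfrsf 4 of 20 (20%) and 0. Kif, the kinesin motors, had 5 of 38 (13.2%) and 0, and Tspan, the tetraspanins, 3 of 20 (15%) and 0. Over all clusters the shares were 2.14% higher and 0.919% lower. The named families are among those of the 153 with the highest shares of rises. Among families of genes that T cells are not known to use, the olfactory receptors (Olfr) had 4 of 1117 called higher. This share of 0.358% lay below that of all clusters. The called members were Olfr60, Olfr173, Olfr175-ps1 and Olfr176. Olfr60 read 5.96 to 6.31 in cTregs and 8.19 to 9.66 in eTregs, a rise of at least 6.65-fold, and the other 3 lie on chromosome 16. Olfr175-ps1 and Olfr176 rose by 1.01 and 0.76. Olfr173 rose by at least 1.90-fold, and its adjusted P was 0.0624 to 0.07 without cTreg 2, cTreg 4, eTreg 3 or eTreg 4. These genes were chosen after their values were seen.

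Predicted genes with symbols of the Gm, LOC or Rik type on chromosome 14 accounted for 43 of the 476 rises (9.03%), with differences of 0.52 to 1.14 and a median of 0.74. On that chromosome 6.07% of clusters were called higher. Of the 43 clusters, 6 had values identical to another, in 3 pairs, and the median correlation between the clusters over the 8 control arrays was 0.957, so near-identical copies that share probes cannot be counted as separate genes. Without them 433 rises and 637 calls remained. They were chosen after their values were seen.

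Some called genes were neighbours. Of 19646 genes that could be placed in the RefSeq gene order, 632 were called. Of these 632, 100 (15.8%) lay next to a gene called in the same direction. They formed 46 runs, of which 8 had 3 or more genes, and 2 of these 8 were chromosome 14 copies. Other runs held related genes that may share probes, such as the Naip genes. The share to be found without such copies was not computed. Pairs included the costimulation genes Ctla4 and Icos and the unrelated genes Nrp1 and Itgb1. Abcb1a and Abcb1b, the drug efflux pump genes, rose by 1.87 and 1.49. All pairs named here were chosen after their values were seen.

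The values of the arrays labelled KO do not enter the control difference, but they share the estimate of the spread behind the calls. In these arrays 468 of the 476 clusters called higher also had a positive eTreg minus cTreg difference. Of the 204 called lower, 186 had a negative one, where 57.7% of all clusters had the same sign in both comparisons. The 476 include the 43 chromosome 14 clusters that cannot be counted as separate genes. The medians in KO arrays were 0.772 and -0.418, beside 0.900 and -0.686 in controls, where the genes were selected. In KO arrays 242 of the 476 and 49 of the 204 were called in the same direction, where 2.35% of all clusters were called. Tigit differed by 3.18 and Cnn3 by -1.45. Sulf2 differed by 0.64 in KO arrays and -1.36 in controls, with an adjusted interaction P in limma of 0.151. By limma 0 of 22203 interactions were called, 1358 had an unadjusted P below 0.05, and the lowest adjusted P of any cluster was 0.107.

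**Figure D5:**
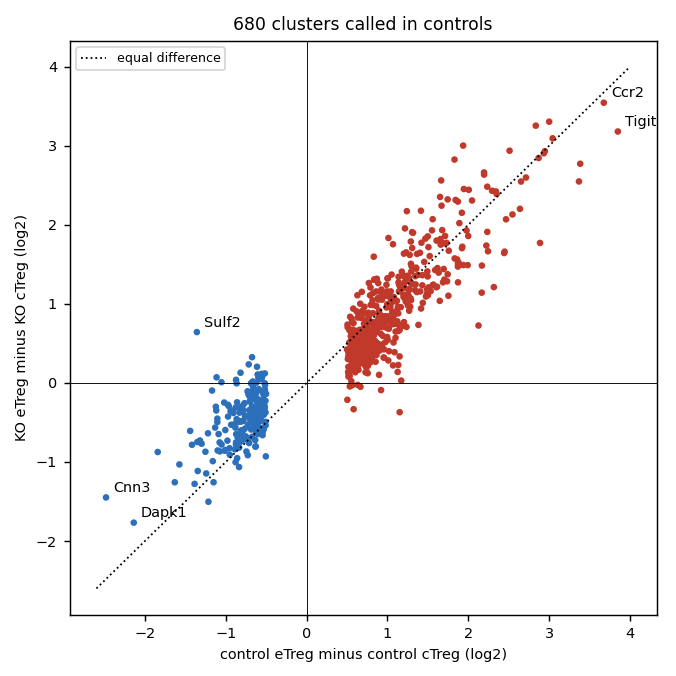
Each point is 1 of the 680 clusters called in controls, with its eTreg minus cTreg log2 difference in control arrays on the x axis and in KO arrays on the y axis. Red points were called higher and blue points lower in controls, and 468 of 476 red points lie above 0 and 186 of 204 blue points below 0 in KO arrays.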

How the data were processed

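RNA of sorted control Tregs (8 arrays) and of Tregs labelled KO (6 arrays) was read on Clariom S mouse arrays. The authors' deposited values are log2 signals, summarised per transcript cluster in Expression Console 1.1 by robust multi-array average (submitters' processing notes), which corrects background, quantile normalises and takes a median polish. Of 28846 entries, 6640 control probe sets and 3 without a symbol were left out, leaving 22203 clusters (21902 symbols), with no filter on signal. Quantile normalisation assumes like distributions in all arrays. The number of arrays limits the precision. Array scans were not used here, so background and summary could not be varied. No genome build is named for the clusters in the sources used here. Gene order and promoters came from RefSeq tables of GRCm38.p6, in which 92.7% of symbols were present.

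A 4-group linear model was fitted with limma 3.58.1 in R 4.3.3 (10 residual and 5.65 prior degrees of freedom). P values are two-sided and adjusted by Benjamini-Hochberg over all 22203 clusters. A called cluster had an adjusted P below 0.05 and a log2 difference of at least 0.5. A symbol was represented by its cluster of highest mean, and 27 date-like symbols were kept as deposited. The background level (6.30) is the highest array median of 23 background probe sets. For a gene with 1 group mean at or below it, the fold is the brighter mean over the mean of the higher of that level and the dim array's own value. Genes are named if they were markers, among the 15 largest rises or falls without overlap, or in a gene list, as the 6 largest called each way and the 4 brightest uncalled, or any member of a list of at most 12. Other genes, such as neighbours at a locus and defining markers of other cell types, were chosen after their values were seen. Members and lists were chosen with earlier results of these data known. The fit was tested on simulated data. Tables were made with Python 3.11.15 and pandas 2.3.3, and figures with matplotlib 3.10.9. Some genes of the lists are not reported here by name.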

Additional observations from a re-analysis of the deposited data

Results flagged for a closer look

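Among the 344 groups of 4 control arrays tested (172 named genes in each subset), 1 array stood far from the other 3 in 26, by a gap that took up more of the group's range than Dixon's limit allows. Chance alone flags about 1 in 20 groups. The numbers below are that gap as a share of the range.

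In cTreg 1 these were Ms4a4c (0.936), Irf4 (0.867), C1qa (0.855), Pdcd1 (0.844) and Bcl2a1a (0.833), each lower there. In cTreg 2 they were Dusp1 (0.952), Nfatc1 (0.944) and Ccl5 (0.901), lower there. In cTreg 3 they were Casp4 (0.907, lower) and Cnga1 (0.871, higher), and in cTreg 4 Hmgn3 (0.840, higher).

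In eTreg 1 they were Tigit (0.953), Nrp1 (0.914), Tsc22d3 (0.877), Bcl2a1b (0.872), Bcl2a1d (0.846) and Il6st (0.840), each lower there. In eTreg 2 Ms4a4c (0.981), C1qa (0.889), Lyz2 (0.877) and Ccr2 (0.867) were higher and Il23r (0.867) and Cd4 (0.850) lower. In eTreg 3 Cd8a (0.920) was higher, and in eTreg 4 Penk (0.993) and Fosb (0.890) were higher. The 3 flagged monocyte and macrophage genes, C1qa, Lyz2 and Ccr2, were thus highest in the same eTreg array.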

How the results depend on the processing

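Against 680 called clusters (476 higher in eTregs, 204 lower), a limit of 1 on the log2 difference left 242 (206 and 36), and an unadjusted P of the same size gave 1049 (733 and 316). Omitting 1 control array gave 535 to 636 calls (370 to 479 higher and 143 to 182 lower). The other alternatives gave 543 (clusters above the median signal only) to 979. Subtracting the array medians, which shifted the median of all clusters by -0.047, gave 403 rises and 256 falls, and leaving out the chromosome 14 copies, chosen after seeing the data, gave 637 calls. A fit of the 8 control arrays alone gave 893, with 673 of the 680. Of 132 named called genes, 121 kept the call in each of the 8 omissions. Replicates with the same number deviated together only weakly (r of 0.222, 0.146, 0.102 and 0.0707 in controls and 0.303, 0.290 and 0.0443 in KO arrays), and cTreg 4 correlated best with eTreg 2 (0.0897). Both subsets came from 4 control mice, but whether equal numbers mark 1 mouse is not stated, so the block was kept as an alternative and is given beside the results whose call it changed. With the replicate number as a replicate block, 739 clusters were called with 14 arrays, 636 of them among the 680, and 979 with the 8 control arrays. Of the named called genes 130 of 132 kept the call in the former, the exceptions being H2-Ob (adjusted P = 0.0757) and Gpd2 (adjusted P = 0.0686).

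Sign changes near 0, none of them called, were seen for Cd3d (-0.0181), Foxp3 (-0.0285) and Junb (-0.0435) with array medians subtracted, and for Ncr1 (0.0473) and Pcna (0.0390) with array weights. With 1 array omitted, the differences ran from -0.199 to 0.0080 for Atg14, from -0.0105 to 0.0654 for Cd3d, from -0.0123 to 0.0414 for Foxp3, from -0.0414 to 0.0619 for Junb, from -0.175 to 0.0516 for Ncr1 and from -0.0446 to 0.0480 for Pcna. The 4 arrays of each group limit the precision, and signals near the background level understate folds.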

Other observations

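Some genes outside the lists, chosen after their values were seen, also separated the subsets without overlap. Ces2c, a carboxylesterase, read 7.36 to 7.48 in control cTregs and 9.55 to 10.23 in control eTregs and rose by 2.45 (SE 0.19, adjusted P = 2.2e-06), and its neighbour Ces2b rose by 1.44. The neighbouring membrane protein genes Tmem176b and Tmem176a rose by 1.65 and 1.01, and the neighbouring protease inhibitor genes Serpina3f and Serpina3g by 1.28 and 1.21. Each pair is of related genes. Among the falls were Cd55, a surface inhibitor of complement (-1.13), Ly6k (-1.15), the retinol saturase gene Retsat (-1.11) and Gpd2, a mitochondrial glycerol phosphate dehydrogenase (-1.17). Gpd2 read 9.15 to 9.97 in cTregs and 7.93 to 8.96 in eTregs, and its adjusted P was 0.0524 without cTreg 1, 0.053 without eTreg 4 and 0.0686 with the replicate block. That of Tmem176a was 0.0506 without cTreg 3.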
